A study of Mus musculus with 36 samples.

Results

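Crystalline silica was set directly against amorphous silica in cultured mouse fibroblasts. The comparison used 8 of the 36 arrays of the study: the 4 replicates labelled Min-U-Sil 5 and the 4 labelled NM-203 at 2 µg/cm². They were chosen by their titles, and the scanner headers give all 8 the same scan day. Min-U-Sil 5 is a ground crystalline quartz and was given at 20 µg/cm². NM-203 is a pyrogenic synthetic amorphous silica. The doses differ, so material and dose cannot be told apart in any value below. The labels do not say whether both exposures shared a culture run, so a run cannot be told apart from them either. The host of both exposures was Bhas 42, a line made from BALB/c 3T3 mouse fibroblasts that carries the viral Ha-ras oncogene and forms transformed foci under tumour promoters. Every group thus shares the ras transgene. Treatment began on day 4 of culture, lasted 48 h and ended with harvest on day 6. The 4 arrays of cells given 2% water, labelled as the control of Min-U-Sil 5 and scanned on the same day, served as the background level for both exposures. No label makes them a control of NM-203. Another water group of the study, titled without a particle name, was scanned on another day and was not used as the background level. NM-203 at 5 µg/cm² is used once.

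Inhaled crystalline silica causes silicosis, a fibrosis of the lung, and is classed as a human lung carcinogen, whereas amorphous silicas are cleared more readily. At the cell surface, silanol groups and surface radicals of the particles interact with membranes, and phagocytosed crystals damage lysosomes and activate the NLRP3 inflammasome in macrophages. Fibroblasts respond to growth stimulation by making more ribosomes and entering S phase, and a transformation assay such as that of Bhas 42 reads out loss of contact inhibition. Proliferins, secreted relatives of prolactin, were first known as transcripts that serum induces in mouse fibroblasts.

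The signal of a gene is given as log2 of the background-subtracted spot intensity minus the 75th percentile of its array, so that 0 is the level of that percentile and 1 unit is a factor of 2. Differences are Min-U-Sil 5 minus NM-203 at 2 µg/cm², from a limma fit to all 36 arrays with the glass slide as a block, and ± is the standard error of that fit with n = 4 arrays a group. A gene is called when its p-value, adjusted over all 32491 gene names tested by the method of Benjamini and Hochberg, is under 0.05. The 8 arrays lay on 2 slides. Slide 4 held Min-U-Sil 5 replicates 1, 2 and 4 with NM-203 replicate 2, and slide 5 held Min-U-Sil 5 replicate 3 with NM-203 replicates 1, 3 and 4. Nothing in the labels ties an array to one culture, so the spread behind the p-values may be technical. That spread was pooled within the 9 groups of all 36 arrays and not taken from these 8 alone.

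NM-203 replicate 2 stood apart from the other arrays. It had 380 outlier spots, against at most 117 on the other 7, and the lowest share of probes well above background, 57.7% in a range of 57.7% to 75.9%. On that array 1191 of 27239 measured genes lay 2 or more log2 units from the median of the other 3 NM-203 arrays. Min-U-Sil 5 replicate 3 had 785 such genes of 31598, and the other 6 arrays had between 57 and 186. Correlations across genes between replicates ran from 0.976 to 0.993 in Min-U-Sil 5 and from 0.953 to 0.987 in NM-203. Most list counts below are given with and without NM-203 replicate 2. Of the 13 fibroblast markers, 12 were well above background on all 8 arrays.

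Between the exposures, 5506 of 32491 genes were called (16.9%). Signal was higher in Min-U-Sil 5 for 2520 of them (7.76% of those tested) and lower for 2986 (9.19%). A difference of 2-fold or more was found for 1331 called genes. Without NM-203 replicate 2 the count was 3015 (9.28%; 4.2% higher and 5.08% lower), of which 2506 were among the 5506. Without the slide block it was 9011, of which 4944 were shared. It was 1852 in a fit to slides 4 and 5 only, and 299 in a fit to the 8 arrays only. Scaling the arrays on the median gene moved the middle of all differences from 0.05 to -0.06 and the share of higher calls from 45.8% to 30.1%. Small differences in either direction thus depend on the scaling, and those below are read beside a median over all genes of 0.05. Counts of list members are read beside 7.76% higher and 9.19% lower of all genes, or 4.2% and 5.08% without NM-203 replicate 2. Fewer cells of a type and less RNA per cell cannot be told apart in such bulk samples.

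The widest contrast among the lists was in the proliferins. All 3 members measured were higher in Min-U-Sil 5, against 7.76% of all genes. Prl2c1 had signals of 4.35, 4.62, 4.56 and 4.44 in Min-U-Sil 5, of 2.09, 1.88, 2.10 and 1.54 in NM-203 and of 0.59, 0.37, 0.67 and 0.77 in water. The groups did not overlap, and NM-203 lay between water and Min-U-Sil 5. The difference between the exposures was 2.64 ± 0.17, a factor of 6.24 (adjusted p = 2.76e-10), and it was 2.59 within slide 4 and 2.65 within slide 5. Prl2c5 differed by 2.44 ± 0.17 (adjusted p = 7.95e-10) and Prl2c3 by 2.85 ± 0.22 (adjusted p = 1.41e-08). These genes are near-identical copies, so their probes can share signal and the 3 values are not separate evidence. Against water, Prl2c1 rose by 3.92 in Min-U-Sil 5 (adjusted p = 5.08e-15) and by 1.28 in NM-203 (adjusted p = 1.82e-05).

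**Figure D1:**
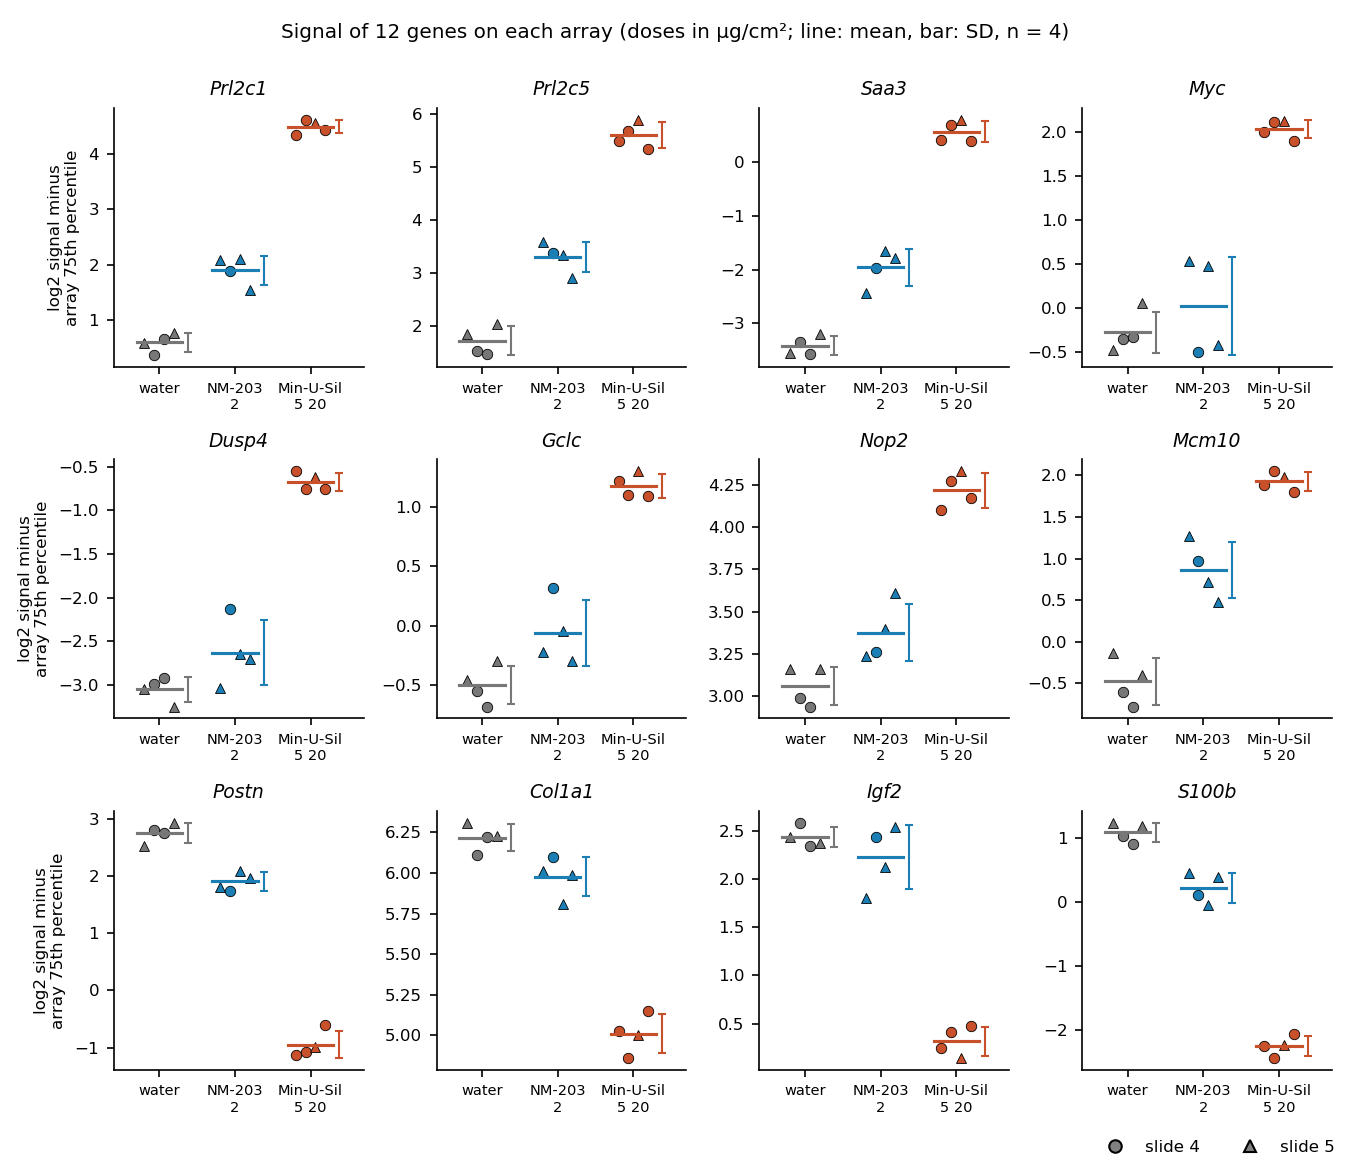
Signal of 12 genes on each array in water, NM-203 at 2 µg/cm² and Min-U-Sil 5 at 20 µg/cm², as log2 of the intensity minus the array's 75th percentile; circles are slide 4, triangles slide 5, lines the mean and bars the SD of 4 arrays. In every panel the 4 Min-U-Sil 5 arrays lie apart from the 4 NM-203 arrays; for Prl2c1 they run from 4.35 to 4.62 against 1.54 to 2.10.

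Genes of ribosome production moved together. Of 33 members measured, 32 were higher in Min-U-Sil 5 and 0 were lower, with a median difference of 0.76 against 0.05 over all genes. Without NM-203 replicate 2 the count was 30. A fit to the 8 arrays of the 2 exposures alone called 3 of them with a median of 0.75. For 30 of the 33 the 4 Min-U-Sil 5 arrays lay wholly above the 4 NM-203 arrays, against 7.57% of all genes.

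Nop2, a nucleolar RNA methyltransferase, had signals of 4.10, 4.27, 4.33 and 4.17 in Min-U-Sil 5 and of 3.24, 3.26, 3.40 and 3.61 in NM-203. Water lay at 3.16, 2.99, 2.94 and 3.16. The 2 exposures did not overlap, whereas NM-203 lay just above water. The difference was 0.92 ± 0.11, a factor of 1.90 (adjusted p = 1.9e-06), and 0.92 and 0.91 within the 2 slides. Against water, Nop2 rose by 1.20 in Min-U-Sil 5 (adjusted p = 1.42e-09), while NM-203 gave 0.27 (adjusted p = 0.0642).

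Rrs1 and Ppan, both needed for the large ribosomal subunit, were higher by 1.06 ± 0.13 and 0.96 ± 0.11. Mybbp1a, a nucleolar partner of RNA polymerase I, was higher by 0.76 ± 0.10. The box C/D snoRNP proteins Nop56 and Nop58 were higher by 1.12 and 0.92, and the polymerase I subunits Polr1b and Polr1a by 0.91 and 0.48. Gar1, an H/ACA snoRNP protein, had the largest difference of the list, 2.26, but was no longer called without NM-203 replicate 2 (adjusted p = 0.148). Npm1, the abundant nucleolar chaperone, was the 1 member not called, at 0.01. The ribosomal proteins themselves did not follow this pattern: of 28, 0 were higher and 1 was lower (limma; 13 had an unadjusted p under 0.05), with a median of -0.19. Without NM-203 replicate 2 that call was lost and the median was -0.03, and the median was -0.44 within slide 4 and -0.02 within slide 5.

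Per array, the median of the ribosome production genes against the mean of water was 0.94, 1.18, 1.20 and 0.94 in Min-U-Sil 5 and 0.42, 0.37, 0.30 and 0.40 in NM-203. The groups did not overlap, nor did NM-203 overlap the water arrays, which ran from -0.11 to 0.11. Set against water, 32 members rose in Min-U-Sil 5, where 12% of all genes did, and 14 in NM-203, where 7.04% did. These comparisons share the water arrays.

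Transcription factors and signalling genes that growth factors induce were split. Myc, a factor that drives ribosome production and growth, had signals of 2.00, 2.11, 2.12 and 1.90 in Min-U-Sil 5, of 0.54, -0.49, 0.48 and -0.42 in NM-203 and of -0.47, -0.35, -0.33 and 0.06 in water. Only the Min-U-Sil 5 arrays stood clear of water. The difference was 2.15 ± 0.23, a factor of 4.44 (adjusted p = 8.56e-07). The difference between NM-203 and water was 0.22 (adjusted p = 0.523).

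Fosl1, an AP-1 subunit downstream of ras, was higher by 1.74 ± 0.27 (adjusted p = 7.61e-05). Among the outputs of ERK signalling, the phosphatase Dusp4 was higher by 1.83 ± 0.20, the ETS factors Etv4 and Etv5 by 1.26 ± 0.16 and 0.91 ± 0.14, and the EGF receptor ligand Hbegf by 0.97 ± 0.19. In NM-203 the Dusp4 difference from water was 0.49 (adjusted p = 0.0805) and that of Etv4 was 0.20 (adjusted p = 0.389). As whole lists, 5 of 25 AP-1 and immediate early genes were higher and 2 lower (median 0.02). For ERK output, 4 of 22 genes were higher and 1 lower (median 0.23). Over all genes 7.76% were higher and 9.19% lower. Leaving out NM-203 replicate 2 gave 2 and 1 of the AP-1 list and 4 and 0 of the ERK list. Fos, Egr1 and Dusp6, early and ERK-dependent transcripts, were not called, at -0.10, -0.40 and 0.15. Klf4 was called at 1.89 only through NM-203 replicate 2, where its signal was 0.15 against 3.33 to 3.81 on the other 3 arrays. Without that array its difference was 0.33 (adjusted p = 0.66).

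**Figure D2:**
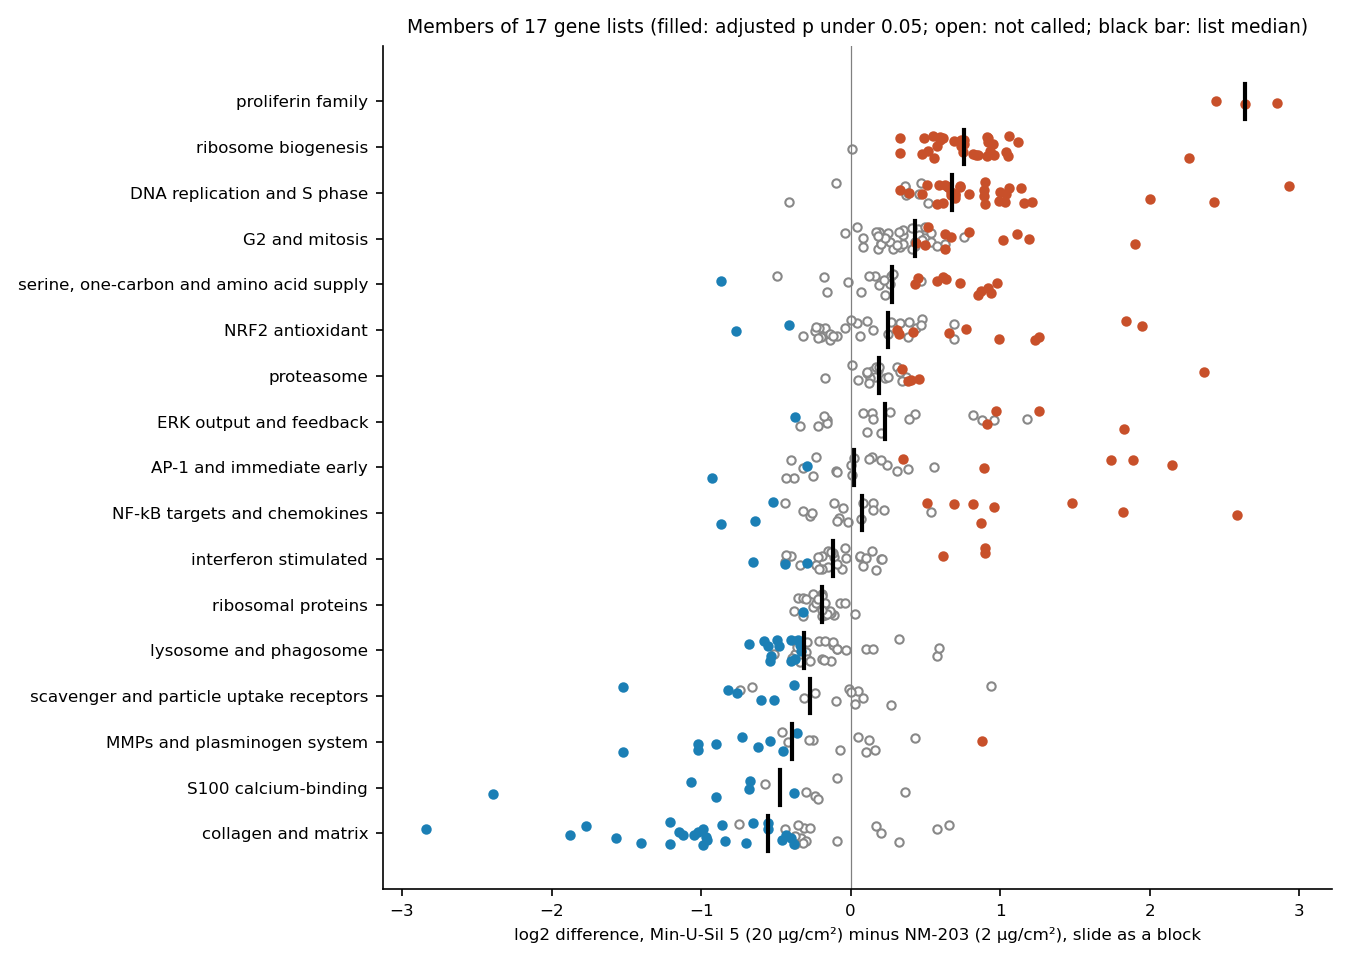
Difference of each measured member of 17 gene lists, Min-U-Sil 5 minus NM-203 at 2 µg/cm², on the log2 scale; filled points are called at an adjusted p under 0.05, open points are not, and black bars are the list medians. Ribosome biogenesis holds 32 filled points on the right and collagen and matrix 25 on the left, with medians of 0.76 and -0.55.

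Replication genes were higher in Min-U-Sil 5, and mitotic genes less clearly so. Of 43 genes of DNA replication and S phase, 33 were higher and 0 lower, with a median of 0.68, and 23 were higher without NM-203 replicate 2 and 19 without Min-U-Sil 5 replicate 3. Of 45 genes of G2 and mitosis, 11 were higher and 0 lower, with a median of 0.43. Both counts are read beside the 7.76% of all genes that were higher. That second count was 7 without NM-203 replicate 2, 22 without its replicate 1, 4 without its replicate 4 and 7, 7, 5 and 5 without each Min-U-Sil 5 array, and 5 without the slide block. The difference between the 2 lists was not tested.

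Mcm10, a helicase activator of replication origins, had signals of 1.88, 2.05, 1.98 and 1.80 in Min-U-Sil 5, of 1.27, 0.97, 0.72 and 0.48 in NM-203 and of -0.13, -0.60, -0.78 and -0.40 in water. All 3 groups were separate, with NM-203 in the middle. The difference between exposures was 1.14 ± 0.18, a factor of 2.20 (adjusted p = 8.76e-05). Mcm7 and Mcm3, subunits of the replicative helicase, were each higher by 0.89, and Rfc3, of the clamp loader, by 0.68 ± 0.09. Pold1 and Chaf1a, at 2.43 and 2.93, were among the calls lost without NM-203 replicate 2. Chaf1a was still at 1.97 without it (limma, adjusted p = 0.0622). Its signal was low on NM-203 replicates 2 and 4, at -2.23 and -2.60, against 1.60 and 1.05 on replicates 1 and 3.

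Both exposures stood above water in these lists. For S phase genes the rise over water reached the threshold for 39 members in Min-U-Sil 5 and for 34 in NM-203. Among all genes it did so for 12% and 7.04%. For mitotic genes it did so for 45 and 41 of 45. The array medians of the mitotic list were 1.54, 1.58, 1.75 and 1.53 in Min-U-Sil 5 and 1.75, 1.24, 1.14 and 0.82 in NM-203. NM-203 replicate 1 thus lay as high as the highest Min-U-Sil 5 array, and the groups overlapped. In the S phase list the medians were 1.52, 1.45, 1.65 and 1.47 against 1.34, 0.94, 0.84 and 0.50, without overlap. Mki67, the proliferation antigen, was higher by 0.63 (adjusted p = 0.025), and Cdk1, the mitotic kinase, was not called at 0.45 (adjusted p = 0.153).

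**Figure D3:**
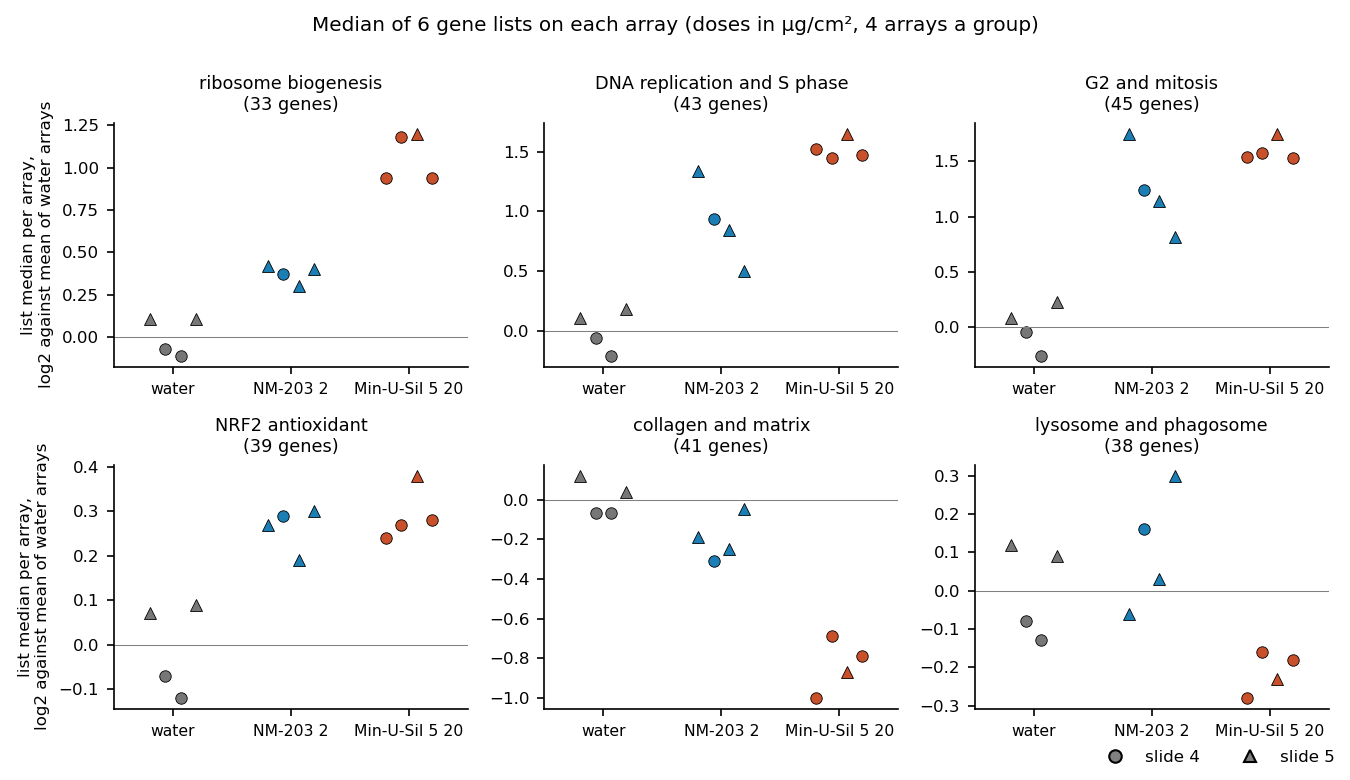
Median of 6 gene lists on each array, as log2 difference from the mean of the 4 water arrays; circles are slide 4 and triangles slide 5. The 4 Min-U-Sil 5 arrays lie above the NM-203 arrays in ribosome biogenesis and S phase and below them in collagen and matrix and in lysosome and phagosome, while G2 and mitosis and NRF2 antioxidant overlap.

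The promoters of S phase genes are shown because E2F factors drive many genes of this list and its members moved together. The windows are the 250 bases before the start in RefSeq (build GRCm38.p6), written 5′ to 3′ on the strand of the gene. They held a window for 35 of the 43 members. The letters TTTCCCGC or TTTGGCGC, on either strand, occurred in 7 of the 35 (20.0%) and in 1.51% of the 27025 genes with a window. Both are E2F-type sites, and neither overlaps the other in the windows shown. CCAAT, which NF-Y binds, occurred in 62.9% of the S phase windows, in 70.3% of 37 mitotic windows and in 37.5% of all. Of the 7 genes, 6 were called higher, beside 33 of the 43 in the whole list. The 4 with the smallest p-values among those 6 are printed, with the match in capitals. A match is a description of letters and not evidence of binding.
Mcm7 (chr5:138171884-138172133, minus strand, match 165 bases before the start): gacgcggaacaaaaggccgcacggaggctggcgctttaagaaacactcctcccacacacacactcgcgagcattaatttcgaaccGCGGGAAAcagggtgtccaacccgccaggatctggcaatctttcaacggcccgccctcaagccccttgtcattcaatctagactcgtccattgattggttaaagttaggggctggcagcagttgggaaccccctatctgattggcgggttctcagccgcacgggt
Cdc6 (chr11:98907901-98908150, plus strand, match 138 bases before the start): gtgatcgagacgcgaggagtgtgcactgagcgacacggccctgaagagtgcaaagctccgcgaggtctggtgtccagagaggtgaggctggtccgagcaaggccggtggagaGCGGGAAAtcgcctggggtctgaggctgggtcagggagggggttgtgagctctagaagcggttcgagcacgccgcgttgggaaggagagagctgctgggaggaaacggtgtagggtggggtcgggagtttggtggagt
Mcm5 (chr8:75109259-75109508, plus strand, match 149 bases before the start): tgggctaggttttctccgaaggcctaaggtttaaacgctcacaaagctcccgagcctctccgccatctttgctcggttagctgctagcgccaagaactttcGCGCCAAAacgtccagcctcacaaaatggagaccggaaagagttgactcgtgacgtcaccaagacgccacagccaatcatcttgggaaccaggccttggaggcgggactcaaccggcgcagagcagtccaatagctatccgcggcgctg
Dtl (chr1:191575545-191575794, minus strand, match 8 bases before the start): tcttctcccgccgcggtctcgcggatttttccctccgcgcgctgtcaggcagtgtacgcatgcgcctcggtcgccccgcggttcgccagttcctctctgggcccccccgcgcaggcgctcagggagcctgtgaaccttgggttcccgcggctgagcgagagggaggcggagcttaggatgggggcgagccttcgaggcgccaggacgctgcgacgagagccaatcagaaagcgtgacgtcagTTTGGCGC

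The 4 windows were picked from members called higher, so the direction of their genes was set by that choice. Mcm7, whose helicase subunit unwinds DNA at the fork, was higher by 0.89 and Mcm5 by 0.79. Cdc6, which loads that helicase, was higher by 1.00 ± 0.19, and Dtl, an adaptor that targets replication licensing factors for degradation, by 1.04 ± 0.26. All 4 were still called without NM-203 replicate 2.

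Supply of serine and one-carbon units was another group in which Min-U-Sil 5 stood higher. Of 26 members 11 were higher and 1 lower, against 7.76% and 9.19% of all genes, with a median of 0.27. The counts were 12 and 0 without NM-203 replicate 2. Per array the list medians were 0.75, 0.87, 0.85 and 0.70 in Min-U-Sil 5 and 0.46, 0.57, 0.40 and 0.41 in NM-203, without overlap. The serine synthesis enzymes Phgdh, Psat1 and Psph were higher by 0.45, 0.85 and 0.92. The mitochondrial folate enzymes Shmt2 and Mthfd2 were higher by 0.73 ± 0.11 and 0.87 ± 0.14, the glycine transporter gene Slc6a9 by 0.94 ± 0.13 and Cth, the cysteine-forming enzyme, by 0.98. Of the response to amino acid shortage, the activators and targets Atf4, Asns and Trib3 were higher by 0.48, 0.57 and 0.67. The chaperones of the endoplasmic reticulum did not move with them: Pdia4 was lower, at -0.87 ± 0.18, and Hspa5 was not called at -0.42. The list of the unfolded protein and integrated stress response, which holds Pdia4 and also Asns, had 4 members higher and 4 lower of 29. The counts were 4 and 2 without NM-203 replicate 2.

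NRF2 targets were split, with 10 of 39 higher in Min-U-Sil 5 and 2 lower, against 7.76% and 9.19% of all genes. Gclc, the catalytic subunit of glutathione synthesis, had signals of 1.22, 1.1, 1.30 and 1.09 in Min-U-Sil 5, of -0.22, 0.32, -0.04 and -0.30 in NM-203 and of -0.46, -0.55, -0.68 and -0.30 in water. The exposures did not overlap, and the lowest NM-203 array was level with the highest water array. The difference was 1.23 ± 0.12, a factor of 2.35 (adjusted p = 2.88e-07). Its partner Gclm was higher by 0.66 ± 0.08, the glutathione transferases Gsta3 and Gsta2 by 1.95 ± 0.21 and 1.84 ± 0.24, the cystine transporter Slc7a11 by 1.26 and thioredoxin reductase Txnrd1 by 0.99. Hmox1 and Nqo1, much used as markers of NRF2, were not called, at -0.09 and -0.32. Gstm2 was lower, at -0.77. The median of the list was 0.25 over both slides and -0.03 within slide 4, and the array medians of the exposures overlapped. The counts were 11 and 2 without NM-203 replicate 2.

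The antioxidant response element, which NRF2 binds, has the core letters TGACNNNGC. This was found on either strand in the 250 bases before the start in 9 of 34 NRF2 targets with a window (26.5%) and in 11.5% of all genes. Of those 9, 5 were called higher, beside 10 of 39 in the whole list. The windows of the 2 with the smallest p-values among those 5 are printed with the match in capitals. They show where these letters lie before a transferase gene and a glutathione synthesis gene.
Gsta3 (chr1:21240335-21240584, plus strand, match 121 bases before the start): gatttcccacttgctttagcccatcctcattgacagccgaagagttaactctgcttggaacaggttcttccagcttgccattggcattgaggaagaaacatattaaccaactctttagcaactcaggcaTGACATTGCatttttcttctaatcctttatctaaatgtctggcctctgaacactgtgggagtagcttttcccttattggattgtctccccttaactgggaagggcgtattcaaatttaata
Gclm (chr3:122245307-122245556, plus strand, match 134 bases before the start): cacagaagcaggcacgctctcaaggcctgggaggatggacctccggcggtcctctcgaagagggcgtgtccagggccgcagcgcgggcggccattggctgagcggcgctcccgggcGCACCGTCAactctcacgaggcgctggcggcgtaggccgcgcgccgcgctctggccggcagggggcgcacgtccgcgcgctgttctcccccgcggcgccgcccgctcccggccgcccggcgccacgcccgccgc

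Inflammatory genes went both ways. Saa3, an acute phase protein made by fibroblasts and macrophages, had signals of 0.40, 0.68, 0.78 and 0.38 in Min-U-Sil 5, of -2.43, -1.97, -1.65 and -1.79 in NM-203 and of -3.54, -3.35, -3.57 and -3.20 in water. The 3 groups were separate. The difference was 2.58 ± 0.31, a factor of 5.99 (adjusted p = 3.11e-06). Ptgs2, the inducible prostaglandin synthase, was higher by 1.48 ± 0.23, and the monocyte chemokines Ccl2 and Ccl7 by 0.87 and 0.82. The adhesion molecule Vcam1 and the chemokine Cx3cl1 were lower, at -0.64 ± 0.11 and -0.87 ± 0.14. Vcam1 has 2 probes, and the other gave only -0.07. Of 26 NF-kB targets and chemokines, 8 were higher, against 7.76% of all genes. Only 3 were lower, near the 9.19% of all genes that were lower. The counts were 5 and 3 without NM-203 replicate 2. In the inflammasome list (3 higher and 4 lower without that array) 4 of 18 were higher, among them Nlrp2 by 1.89 ± 0.28 and the interleukin 1 antagonist Il1rn, dim in NM-203 and at least 1.6-fold higher, and 4 were lower, among them Il18 at -0.92 ± 0.11. Nlrp3 and Casp1 were not called, at 0.60 and 0.08. Il33 was lower at -1.82, but only 1 of its 2 probes gave that sign.

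Matrix genes formed the largest group that was lower in Min-U-Sil 5. Of 41 genes of collagen and matrix, 25 were lower and 0 higher (limma), against 9.19% lower of all genes, with a median of -0.55. Without NM-203 replicate 2, 23 were lower. Postn, a matrix protein of activated fibroblasts, had signals of -1.13, -1.07, -0.99 and -0.61 in Min-U-Sil 5, of 1.81, 1.74, 2.09 and 1.97 in NM-203 and of 2.52, 2.81, 2.75 and 2.93 in water. Both exposures lay below water, and Min-U-Sil 5 far lower. Its difference was -2.84 ± 0.24, a factor of 7.16 lower (adjusted p = 3.37e-08), and all 3 probes of the gene had this sign.

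Col1a1, the main chain of type I collagen, had signals of 5.03, 4.86, 5.00 and 5.15 in Min-U-Sil 5 and of 6.01, 6.10, 5.81 and 5.99 in NM-203, with water at 6.31, 6.11, 6.22 and 6.23. NM-203 lay just under water and all Min-U-Sil 5 arrays well under both. The difference was -0.97 ± 0.09, a factor of 1.96 lower (adjusted p = 2.62e-07). Against water, Col1a1 fell by 1.21 in Min-U-Sil 5 (adjusted p = 2.21e-10), whereas NM-203 gave -0.24 (adjusted p = 0.0694). Its partner chain Col1a2 was not called, at -0.37 (adjusted p = 0.13), nor was fibronectin, Fn1, at -0.32.

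Col3a1, of fibrillar collagen III, was lower at -1.15 ± 0.13. The chains of the microfibril collagen VI, Col6a1, Col6a2 and Col6a3, lay at -0.99, -1.12 and -1.02, and those of collagen V, Col5a1, Col5a2 and Col5a3, at -0.96, -0.86 and -1.21. Among small leucine-rich proteoglycans, which shape collagen fibrils, Prelp was at -1.57 ± 0.17, Aspn at -1.88, Lum at -1.40 and Dcn at -0.46, the last not called without NM-203 replicate 2 (adjusted p = 0.0693). Sparcl1, an anti-adhesive matrix protein, was at -1.77 ± 0.19. Against water 28 members fell in Min-U-Sil 5, where 14.9% of all genes did, and 8 in NM-203, where 7.29% did. The array medians of the list were -1.0, -0.69, -0.87 and -0.79 in Min-U-Sil 5 and -0.19, -0.31, -0.25 and -0.05 in NM-203.

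Of 20 proteases and inhibitors, 9 were lower, 1 was higher and 10 were not called, with a median of -0.39. Counts here are read beside the 9.19% of all genes that were lower and the 7.76% that were higher. Mmp9, a gelatinase, was lower at -1.52 ± 0.21, Mmp2, the other gelatinase, at -1.02, and Mmp14, which activates Mmp2, at -0.73 ± 0.16. Timp4, an inhibitor of these enzymes, was at -1.02. The count of lower members was 7 without NM-203 replicate 2 and 4 without Min-U-Sil 5 replicate 3. Of TGF-beta, BMP and Id genes, 10 of 26 were lower and 3 higher, and without NM-203 replicate 2 the counts were 5 and 2. Among the lower ones were the ligand Tgfb2 at -0.66 ± 0.13 and its induced target Tgfbi at -0.76 ± 0.15. The largest value of that list, Tgfbr3 at 3.32, came with overlapping groups and was not called without NM-203 replicate 2 (adjusted p = 0.721).

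Growth factors and their receptors followed: 9 of 29 were lower and 1 higher, against 9.19% and 7.76% of all genes. The counts were 10 and 1 without NM-203 replicate 2. Igf2, a fetal growth factor, had signals of 0.25, 0.41, 0.14 and 0.47 in Min-U-Sil 5, of 1.81, 2.44, 2.13 and 2.55 in NM-203 and of 2.44, 2.59, 2.35 and 2.38 in water. NM-203 overlapped water and Min-U-Sil 5 lay below both. The difference was -2.0 ± 0.22, a factor of 4.01 lower (adjusted p = 1.3e-06). Pdgfb and its receptor gene Pdgfrb were lower at -0.96 ± 0.13 and -0.73 ± 0.11. In the complement list, 6 of 15 were lower and 0 higher (5 lower without NM-203 replicate 2), with the regulator Cd59a at -1.17 ± 0.18 and the central component C3 at -0.79 ± 0.21.

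S100 genes, which encode small calcium-binding proteins, were lower for 6 of 12 and higher for 0, against 9.19% and 7.76% of all genes. They were lower for 4 without NM-203 replicate 2. S100b had signals of -2.25, -2.44, -2.24 and -2.07 in Min-U-Sil 5, of 0.45, 0.10, -0.05 and 0.38 in NM-203 and of 1.23, 1.02, 0.90 and 1.18 in water. The 3 groups did not overlap. The difference was -2.39 ± 0.23, a factor of 5.25 lower (adjusted p = 2.22e-07).

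Genes of lysosomes and of particle uptake were lower in part. Of 38 lysosome and phagosome genes, 13 were lower and 0 higher, against 9.19% and 7.76% of all genes, with a median of -0.32. The lower count was only 5 without NM-203 replicate 2, 6 and 7 without Min-U-Sil 5 replicates 1 and 3, and 8 without NM-203 replicate 4. Lamp2, a membrane protein of lysosomes, had signals of 5.12, 5.18, 5.35 and 5.01 in Min-U-Sil 5 and of 5.89, 6.02, 5.77 and 6.05 in NM-203, with water at 6.03, 5.85, 5.60 and 6.07. NM-203 overlapped water. The difference was -0.68 ± 0.11 (adjusted p = 7.38e-05). The cholesterol carrier Npc2 was lower, at -0.54 ± 0.10, and the cathepsins Ctsb, Ctsd and Ctsl were not called, at 0.10, -0.34 and -0.03. Of 18 scavenger and uptake receptors, 6 were lower and 0 higher, and 6 and 1 without NM-203 replicate 2. Mertk, a receptor for apoptotic cells, was not well above background on any Min-U-Sil 5 array, and its signal in NM-203 was at least 2.12-fold higher.

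Beyond the lists, the genes furthest apart were transporters, enzymes and protease inhibitors of mixed kinds. Atp13a4, a P-type ATPase, had signals of -3.05, -3.17, -2.90 and -3.51 in Min-U-Sil 5 and of -7.19, -6.34, -5.82 and -7.57 in NM-203, where no array was well above background. Its level was at least 4.9-fold higher in Min-U-Sil 5 (difference 3.54 ± 0.63, adjusted p = 0.000361). Serpinb9f and Serpinb9g, of a family of granzyme inhibitors, were also dim in NM-203 and at least 3.37-fold and 1.61-fold higher in Min-U-Sil 5. They are close relatives, and their probes may share signal. Maats1, a cilia-associated gene, was higher by 2.98 ± 0.40, and St3gal6, a sialyltransferase, by 2.73 ± 0.62. They were well above background on 3 and on 1 of the 4 NM-203 arrays. For Maats1, the difference was 4.41 within slide 4 and 2.18 within slide 5, and it was 1.98 and still called without NM-203 replicate 2. For St3gal6, Min-U-Sil 5 replicate 3 had -1.91 against -4.56, -5.01 and -5.69 on the other 3, and the difference was 1.64 within slide 4 and 4.79 within slide 5.

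In the other direction, Apobec2, of the cytidine deaminase family, had signals of -7.71, -7.66, -7.49 and -7.38 in Min-U-Sil 5, all not well above background, and of -4.40, -4.35, -4.70 and -4.02 in NM-203. It was at least 2.78-fold lower in Min-U-Sil 5 (difference -3.15 ± 0.20, adjusted p = 2.76e-10). Slco2b1, an organic anion transporter, was at -2.90 ± 0.29, Slc22a2, an organic cation transporter, at -2.71 ± 0.43, Ggt5, a gamma-glutamyl transferase, at -2.45 ± 0.27 and Cmbl, a hydrolase, at -2.21 ± 0.20. Olfml1 was at least 3.08-fold lower, dim in Min-U-Sil 5. Ecrg4 and Sorbs2 were at -2.32 ± 0.40 and -2.29 ± 0.22. In Min-U-Sil 5, Slco2b1 and Ggt5 were well above background on 3 arrays and Slc22a2, Ecrg4 and Sorbs2 on 2, so these folds rest partly on dim spots.

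Several of the widest differences rested on NM-203 replicate 2 alone. Glt28d2 had a signal of 7.47 on that array against -2.80, -3.02 and -2.29 on the other 3 and -3.34 to -3.16 in Min-U-Sil 5. Its difference was -10.67 within slide 4 and -0.64 within slide 5, and without that array it was -0.48 (adjusted p = 0.0574). Hirip3 and Ankrd11 showed the same shape in the other direction, with signals of -3.76 and -1.33 on that array and within-slide differences of 6.21 against 0.60 and 6.09 against 0.59. The naming rule took 143 genes, and all had 1 sign within both slides. The rule asked for that among the 12 widest each way. The others were picked by their p-values from the same arrays, so their agreement is no independent support. Of the 143, 24 were not called without NM-203 replicate 2. Why single spots of that array depart was not tested.

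**Figure D4:**
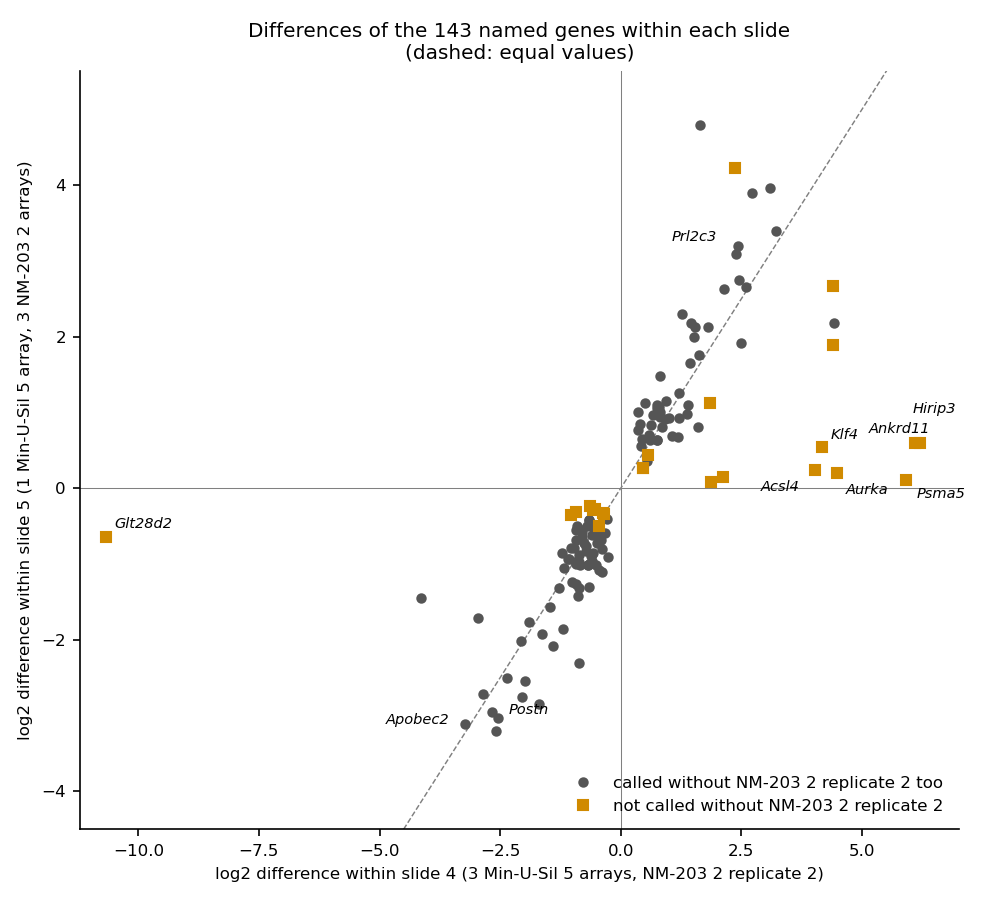
Difference of the 143 named genes within slide 4 (horizontal) and within slide 5 (vertical), on the log2 scale; squares mark the 24 genes not called without NM-203 2 replicate 2, and the dashed line marks equal values. Most genes follow the line, while Glt28d2, Hirip3, Ankrd11 and Psma5 are far from 0 on slide 4 and lie at -0.64, 0.60, 0.59 and 0.11 on slide 5.

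Markers of other cell types were called in small numbers, read beside the 16.9% called of all genes. Of 8 macrophage markers measured of 12, 2 were lower in Min-U-Sil 5, Lyz2 at -1.03 and Aif1 at -0.87, and Ptprc, Cx3cr1, Fcgr1 and Mrc1 did not pass the filter on dim probes. The array medians of that list ran from -0.50 to 0.15 in Min-U-Sil 5, from -0.60 to 0.13 in NM-203 and from -0.36 to 0.26 in water. Epithelial markers were called for 0 of 7 (limma; 2 had an unadjusted p under 0.05), endothelial ones for 1 of 6 and adipocyte ones for 1 of 5. Without NM-203 replicate 2, 1 epithelial marker was lower and the adipocyte call, Fabp4, was lost. Cdh1 and Epcam, which define epithelia, did not pass the filter. Of the fibroblast markers, 5 of 13 were lower and 0 higher: Col1a1, Col3a1, Pdgfrb, Pdgfra and Prrx1. Pdgfra was at -0.41, and at -0.34 and not called without NM-203 replicate 2 (adjusted p = 0.0778). The part of these markers in the matrix result was not tested.

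Against the same water arrays, 8747 genes were called for Min-U-Sil 5 (26.9%) and 4655 for NM-203 at 2 µg/cm² (14.3%). The second count was 2179 without NM-203 replicate 2, 3037 without replicate 1, 7018 without replicate 3 and 2811 without water replicate 3. With median scaling it was 5765, of which 4594 were higher and 1171 lower, in place of 2287 and 2368. Counts of genes that rose over water in NM-203 thus depend on the scaling. Interferon-stimulated genes rose over water in both: 15 of 32 in NM-203 and 12 in Min-U-Sil 5, where 7.04% and 12% of all genes rose. Their array medians ran from 0.34 to 0.51 in NM-203 and from 0.21 to 0.32 in Min-U-Sil 5. Between the exposures 3 members were higher and 3 lower, near the 7.76% and 9.19% of all genes. Without NM-203 replicate 2 the counts were 3 and 1. Genes of oxidative phosphorylation rose over water for 13 of 26 in NM-203 and 10 in Min-U-Sil 5, beside the same 7.04% and 12% of all genes. Psmb9, of the immunoproteasome, had signals of 2.83, 3.03, 2.55 and 2.91 in Min-U-Sil 5, of 3.49, 3.50, 3.40 and 3.33 in NM-203 and of 2.60, 2.63, 2.43 and 2.72 in water. Here NM-203 was the higher exposure, with a difference of -0.65 ± 0.12 (adjusted p = 0.000457).

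NM-203 at 5 µg/cm² was set beside Min-U-Sil 5 after the data had been seen, as a higher dose of the amorphous material. In that comparison 2816 genes were called (8.67%; 4.89% higher and 3.77% lower in Min-U-Sil 5), with 4 arrays a group. The count rested on the 1 array of that dose on slide 5, replicate 1, as the other 3 were scanned on the other scan day: without it 30 genes were called. With that limit, the proliferin Prl2c1 was not called (-0.35, adjusted p = 0.346), nor were Myc (-0.09, adjusted p = 0.878) and Saa3 (-0.72, adjusted p = 0.275). Of 33 ribosome production genes, 0 were higher in Min-U-Sil 5 and 9 lower, and of 41 matrix genes 3 were higher and 3 lower. Gsta3 was still higher in Min-U-Sil 5, by 1.6 (adjusted p = 0.00164), and Postn still lower, at -1.44 (adjusted p = 0.00774). S100b and Sparcl1 were higher in Min-U-Sil 5 than in this dose, by 1.32 and 1.23, the reverse of their order against 2 µg/cm².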

How the data were processed

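Each of 36 RNA samples was labelled with Cy3 and run on its own Agilent array. Per the file headers, spot intensity came from Agilent Feature Extraction 11.0.1.1, with background and spatial trend removed and no scaling between arrays. The authors also deposited a table of log2 values. They appear centred per probe, and their scaling is not given in the sources used here. Its column medians ran from -0.255 to 0.27. It served only as an alternative, with Min-U-Sil 5 replicates 1, 2 and 3 taken from the columns that best matched their scanner files, since these were columns of other Min-U-Sil 5 replicates.

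Signal was log2 processed intensity minus the 75th percentile over 59305 non-control spots. Outlier spots were left out, which touched 69 genes on the 8 arrays. A probe was kept where 3 or more arrays of some group had it well above background (40678 of 56605 probes). Accessions matched through the gene table of GRCm38.p6 named 32994 probes. The brightest probe stood for its gene, and 14619 of the names tested had no symbol and enter counts only. The 9 group means and 5 slides were fitted with limma 3.58.1 under R 4.3.3 (23 residual degrees of freedom), a procedure tested on simulated data. Figures used Python 3.11.15 and matplotlib 3.10.9.

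The comparison and the 38 gene lists were chosen with earlier results of these data known. The rule for named genes took the 12 widest differences each way among genes called with and without the slide block and of 1 sign within both slides. It added up to 4 called members of each list with the smallest p, whether or not they were called without the block. Other members were named after their values were seen. For a probe dim on every array of a group, the bound sets the brighter group's mean against the mean, per dim array, of the higher of its own signal and the lowest signal well above background. The number of arrays limits the precision. Same-numbered replicates of the exposures had deviations correlated at 0.04, -0.21, -0.29 and 0.12. The highest values with another number were 0.37, 0.29, 0.73 and 0.19. Scanner files and deposited columns differ in the numbers of Min-U-Sil 5 replicates 1, 2 and 3. Whether the samples were paired thus cannot be told from these values. A few genes are not reported here.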

Additional observations from a re-analysis of the deposited data

Results flagged for a closer look

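Among 362 sets of 4 arrays, covering the 143 named genes and the 38 gene lists in both exposures, 30 held an array far from the other 3. The measure is the gap from that array to its nearest neighbour as a share of the range of the 4, and values above 0.829 are given for NM-203 and Min-U-Sil 5. Chance gives about 1 in 20 such sets. NM-203 replicate 2 was the array apart in 12 of the 30, Min-U-Sil 5 replicate 3 in 7 and Min-U-Sil 5 replicate 2 in 5.

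In NM-203, replicate 2 lay low for Hirip3 (gap 0.86 of the range), Ankrd11 (0.959), Klf4 (0.869), the lipid enzyme gene Acsl4 (0.87), the respiratory chain gene Cyc1 (0.829) and the proteasome subunit gene Psma5 (0.921). Psma5 had a signal of -0.71 there, against 4.90 or more on the other 3 arrays. That array lay high for Glt28d2 (0.931), Sorbs2 (0.842) and Ankrd1 (0.832), and for the medians of interferon-stimulated genes (0.941), ribosomal proteins (0.9) and the unfolded protein and integrated stress response (0.885). Replicate 4 lay high for Btg2 (0.883) and for scavenger receptors (0.865), and low for Car6 (0.848) and Oasl1 (0.849). Replicate 1 lay low for Itga1 (0.967).

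In Min-U-Sil 5, replicate 3 lay high for Vmn1r187 (0.937), Fabp4 (0.907), the sterol enzymes Tm7sf2 (0.905) and Ebp (0.91) and the median of ribosomal proteins (0.9). It lay low for the medians of epithelial markers (0.919) and of proteases and their inhibitors (0.846). Replicate 2 lay high for Chaf1a (0.839) and Des (0.877) and low for Ptgs2 (0.888), Gsta2 (0.835) and Ncam1 (0.956). Replicate 4 lay low for Serpinb9g (0.837).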

How the results depend on the processing

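Between Min-U-Sil 5 and NM-203 at 2 µg/cm² 5506 genes were called. The count was 9011 without the slide block (4944 shared), 1852 from slides 4 and 5 only (1788 shared), 969 within slide 5 (839 shared) and 299 from the 8 arrays only (292 shared, 7230 at an unadjusted p under 0.05). Leaving out 1 array gave 3015 (without NM-203 replicate 2) to 7343 (without NM-203 replicate 3). A replicate block gave 4436, and whether the numbers pair the samples cannot be told. From the 8 arrays only, 12 matrix genes were lower, 3 each of the NRF2, proliferin and ribosome production lists were higher, and 0 of the S phase, mitosis, serine, lysosome, protease and interferon lists were called. Of 143 named genes, 36 kept call and direction under all settings run and 106 under those fitted to all slides. NM-203 against water ranged from 2179 to 7018 with 1 array left out. Min-U-Sil 5 against NM-203 at 5 µg/cm², 2816 genes, gave 12705 without the block, 10164 with slide as a random block, 5758 with array weights, 1830 with normexp and 30 to 3111 with 1 array left out.

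List medians that moved by more than the spread between arrays were as follows. The interferon median was -0.06 with normexp and with array weights, -0.22 with median scaling and -0.14 to -0.03 with 1 array left out. The protease median was -0.52 within slide 4, -0.27 over the mean of probes and -0.22 with normexp. The matrix median was -0.78 within slide 5. The NRF2 median was 0.16 without the block, -0.03 within slide 4, 0.12 within slide 5, 0.14 with median scaling and 0.16 to 0.28 with 1 array left out. The serine median was 0.42 over the mean of probes, 0.35 with normexp and with array weights, 0.17 with median scaling and 0.26 to 0.44 with 1 array left out. The ribosome production median was 0.63 within slide 4 and 0.66 with median scaling. Btg2 reversed to 0.28 over the mean of its probes. Psma5 ranged from -0.05 without NM-203 replicate 2 to 3.27. The cause was not tested.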

Other observations

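Cell adhesion genes, of which 8 of 24 were lower in Min-U-Sil 5 and 1 higher, kept both counts without NM-203 replicate 2. The counts that follow are read beside the 7.76% of all genes that were higher and the 9.19% that were lower, and several are near those shares. Proteasome genes were higher for 5 of 23 and lower for 0, with a median of 0.19. Among 26 genes of oxidative phosphorylation 2 were higher and 2 lower, and among 26 p53 targets 5 were higher and 4 lower. Heat shock genes had 3 of 19 higher and 2 lower, and 24 cholesterol synthesis genes had 1 higher and 2 lower. Of 32 hypoxia and glycolysis genes 1 was higher and 4 lower, of 28 lipid genes 4 and 3, of 21 contractile and YAP target genes 2 and 7, of 8 metallothionein and zinc genes 0 and 1, of 7 carbonic anhydrases 1 and 1, and of 9 neural markers 0 and 2, S100b and Ncam1.

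The E-box CACGTG, to which Myc can bind, was found in the 250 bases before the start of 2 of 28 ribosome production genes with a RefSeq window (7.14%), on either strand, and in 6.86% of all windows. A match describes letters only.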
